A study of Mus musculus with 2 samples.

Results

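The genes described here are *Ccl3*, *Ccl4*, *Ccl5*, *Ccr1* and *Cd44*, the chemokines and receptors of a circuit proposed to run from T cells through microglia to glioma cells in the optic nerve. These 5 members were taken by symbol from the 32285 genes of the count tables, and all 5 were found. Single-cell RNA sequencing counts were available for 2 libraries, C-ON and FMC_new, both of genotype NF1-OPG and both from optic nerves of 12-week-old mice, with 10 mice pooled per library. In this model 1 *Nf1* allele carries a mutation in every cell and the other is floxed and removed by a GFAP-Cre transgene, on a C57BL/6 background, so complete loss of *Nf1* is limited to cells in which that promoter was active. The title of C-ON holds the word control and that of FMC_new does not, and what either word stands for is not given in the sources used here. The libraries were therefore read as 2 samples of 1 group, levels are given for each, and no test was made between them.

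Ccl3, Ccl4 and Ccl5 are small secreted CC chemokines that attract leukocytes along a gradient. Ccr1 is a G protein-coupled receptor on leukocytes that binds Ccl3 and Ccl5. Cd44 is a surface glycoprotein that binds hyaluronan and osteopontin (Spp1), carries proteoglycan forms that hold chemokines, and is a common marker of T cells that have met antigen. In the Nf1 optic glioma model, T cells that make Ccl4 are described as acting on microglia, which then make Ccl5, a growth factor for the tumor cells, and Ccl3 is described as a recruiter of T cells.

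*Ccl3* (ENSMUSG00000000982) lies at chr11:83647844-83649355 on the minus strand of GRCm38 and *Ccl4* (ENSMUSG00000018930) at chr11:83662584-83664683 on the plus strand, 13228 bases apart with 0 annotated genes between them. *Ccl5* (ENSMUSG00000035042) lies at chr11:83525778-83530518 on the minus strand, *Ccr1* (ENSMUSG00000025804) at chr9:123962124-123968692 on the minus strand, and *Cd44* (ENSMUSG00000005087) at chr2:102811141-102901665 on the minus strand. The chemokine genes have 3 exons each, *Ccr1* has 2, and the *Cd44* transcript with the most exons has 19. No 31-base stretch was shared between the transcripts of different members, and *Cd44* overlaps 1 other annotated gene, *Gm23731*. Promoters are shown for the 3 members found in the set of RefSeq promoters at hand (*Ccl3*, *Ccr1* and *Cd44*), since *Ccl3* and *Ccr1* turned out to share the myeloid cells as their main source while *Cd44* was spread over most immune types. *Ccl4* and *Ccl5* were missing from that set, which says nothing about their annotation. Each sequence holds the 250 bases before the RefSeq start site on GRCm38.p6, minus strand, written 5′ to 3′. Capitals mark matches to the NFAT letters GGAAAA on either strand.

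Ccl3, chr11:83649379-83649628: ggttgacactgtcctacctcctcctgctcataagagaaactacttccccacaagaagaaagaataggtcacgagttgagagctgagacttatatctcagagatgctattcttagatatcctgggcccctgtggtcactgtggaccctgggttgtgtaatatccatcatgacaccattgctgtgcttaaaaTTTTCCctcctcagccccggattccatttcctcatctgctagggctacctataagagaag
Ccr1, chr9:123968693-123968942: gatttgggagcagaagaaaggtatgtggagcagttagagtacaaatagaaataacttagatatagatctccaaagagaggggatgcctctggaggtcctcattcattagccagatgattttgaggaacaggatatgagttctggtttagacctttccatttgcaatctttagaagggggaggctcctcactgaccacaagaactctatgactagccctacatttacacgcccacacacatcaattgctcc
Cd44, chr2:102901666-102901915: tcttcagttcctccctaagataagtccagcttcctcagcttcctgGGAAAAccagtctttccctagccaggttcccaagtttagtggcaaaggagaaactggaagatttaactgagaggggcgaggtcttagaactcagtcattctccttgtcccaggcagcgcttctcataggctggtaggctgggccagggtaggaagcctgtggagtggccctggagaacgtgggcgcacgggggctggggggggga

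*Ccl3* had 1 NFAT match, 60 bases before the start site, *Cd44* had 1, 205 bases before it, and *Ccr1* had none. The same letters were found in 20.4% of all 32851 promoters of that length. The letters of AP-1 (TGANTCA, in 6.75% of promoters), PU.1 (GAGGAAGT, 2.44%) and the TATA box (TATAAA, 12.4%), searched on both strands, were not found in these 3 windows. GC content was 46.8% for *Ccl3*, 43.6% for *Ccr1* and 56.4% for *Cd44*.

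C-ON held 85101211 UMIs (unique molecular identifiers, each a counted transcript molecule) in 10845 barcodes and FMC_new 129113325 in 21341. After filtering, 8834 and 16818 cells remained, with medians of 6810.5 and 4676 UMIs, and 188 of the kept barcodes occurred in both libraries. FMC_new stands apart: the pituitary hormone gene *Gh* held 1876030 UMIs there, with a UMI in 16789 of the 16818 cells, against 1 UMI in C-ON. It also held 359 pituitary endocrine-like cells against 0, and oligodendrocyte-like cells made up 12.3% of its cells against 60.4% in C-ON. Cells were grouped by clustering and named from marker lists, so every name below means cells like that type. All 9 listed T cell markers in CD8 T cells, all 9 microglia markers in microglia and all 12 oligodendrocyte precursor markers in the cells called glioma cells were higher than in the other cells of both libraries. The last list marks oligodendrocyte precursor-like cells, and counts alone cannot tell neoplastic from normal cells of that kind. The main groups held 477 CD8 T cells in C-ON and 1503 in FMC_new, 248 and 1960 microglia, 375 and 1055 border-associated macrophages (the macrophages of meninges and vessels), 203 and 859 type 2 dendritic cells (cDC2), and 211 and 1267 glioma cells.

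The main result was that the members differed in the cell types where they were highest. *Ccl3* and *Ccl4* were at their highest in border-associated macrophages and microglia, *Ccl5* in migratory dendritic cells, CD8 T cells and NK cells, *Ccr1* in cDC2 and border-associated macrophages, and *Cd44* in B cells and plasma cells. Levels below are CPM values, the UMIs of a gene per 1000000 UMIs of a cell type in a library, in the order C-ON then FMC_new, over the 16 types with at least 20 cells in each library. Exact Poisson and binomial 95% intervals are given for single libraries and cover counting error only.

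*Ccl3* stood at 799 (95% interval 758 to 840.2) and 979.9 CPM (952 to 1008) in border-associated macrophages, at 439.5 and 604 CPM in microglia, at 147 and 204 CPM in cDC2 and at 126 and 134 CPM in CD8 T cells. The ranges of the 2 libraries did not overlap between any of these neighbours in the order, and the mean in border-associated macrophages was 1.70-fold that in microglia, which was 2.97-fold that in cDC2. From migratory dendritic cells down to oligodendrocytes the order was not resolved, since neighbouring types overlapped. NK cells had 21.9 and 60.0 CPM, type 1 dendritic cells (cDC1) 49.6 and 20.5, migratory dendritic cells 84.4 and 3.74, regulatory T cells 4.18 and 48.0, and conventional CD4 T cells 24.5 and 8.87. Glioma cells had 2.45 and 7.45 CPM from 3 and 52 UMIs, oligodendrocytes had 0.608 and 3.65, and neurons had 0 UMIs in both libraries.

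*Ccl4* showed the same leading types at 1279 and 2510.5 CPM in border-associated macrophages and 1055 and 1774 CPM in microglia. The ranges of these types overlapped across the libraries, with the lower level in microglia within each library. It then stood at 657 and 892 CPM in cDC2, above CD8 T cells at 419.8 and 634, regulatory T cells at 431 and 489, and NK cells at 479 and 374, and the last 3 were not separated. In regulatory T cells the level rested on few cells, since 6 of 65 cells in C-ON and 32 of 272 in FMC_new held all 103 and 458 UMIs, and single cells held up to 81 and 164 of them. Conventional CD4 T cells had 307 and 73.6 CPM, and 5 cells held all 175 UMIs in C-ON. Glioma cells had 4.08 CPM (1.32 to 9.52) in C-ON and 30.9 (27.0 to 35.4) in FMC_new, and oligodendrocytes 1.46 and 6.18. In FMC_new 1 glioma cell held 70 *Ccl4* UMIs.

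*Ccl5* was highest in migratory dendritic cells (26 and 79 cells), at 11519.9 and 8672 CPM. CD8 T cells followed at 6738 (6627 to 6851) and 7359 CPM (7290 to 7429), NK cells at 3889 and 3750.2, regulatory T cells at 1438 and 1544, and microglia at 1154 and 1196. None of these 5 types overlapped the next in the order. Conventional CD4 T cells had 396 and 707 CPM, border-associated macrophages 239.8 and 571, and cDC2 258 and 389, with overlapping ranges. In C-ON 1 border-associated macrophage held 204 of the 445 *Ccl5* UMIs of that type. The lowest levels differed between the libraries, with 8.97 CPM from 11 UMIs and 230.3 CPM from 1607 UMIs in glioma cells, 9.47 and 31.9 in oligodendrocytes, and 7.41 and 249 in fibroblasts.

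*Ccr1*, the receptor for Ccl3 and Ccl5, had 115 and 152 CPM in cDC2 and 110.5 and 123 CPM in border-associated macrophages, which overlapped. B cells had 48.5 and 43.2 CPM and microglia 28.9 and 58.0, also overlapping. In CD8 T cells 0 *Ccr1* UMIs were found in C-ON, where 3 UMIs would be 1.46 CPM, and 4 UMIs in FMC_new (0.679 CPM). NK cells held 0 UMIs in both libraries, and glioma cells held 0 in C-ON and 14 in FMC_new (2.01 CPM). In neutrophils, which had 3 cells in C-ON and were left out of the order for that reason, 54 of 130 cells in FMC_new held 88 *Ccr1* UMIs.

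*Cd44* varied less among immune cells than the chemokines did. It was highest in B cells at 343 and 292 CPM, followed by plasma cells at 197 and 276 and conventional CD4 T cells at 191 and 225. CD8 T cells had 106 and 138 CPM, NK cells 113 and 133, border-associated macrophages 85.1 and 109, and microglia 88.0 and 55.9, and most of these neighbours overlapped. Fibroblasts had 34.1 and 47.6 CPM, glioma cells 10.6 (5.65 to 18.1) and 35.1 (30.9 to 39.8), and oligodendrocytes 10.0 and 6.18 CPM. The library ranges of glioma cells and oligodendrocytes did not overlap, but the C-ON value of oligodendrocytes lay within the C-ON interval of glioma cells.

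**Figure D1:**
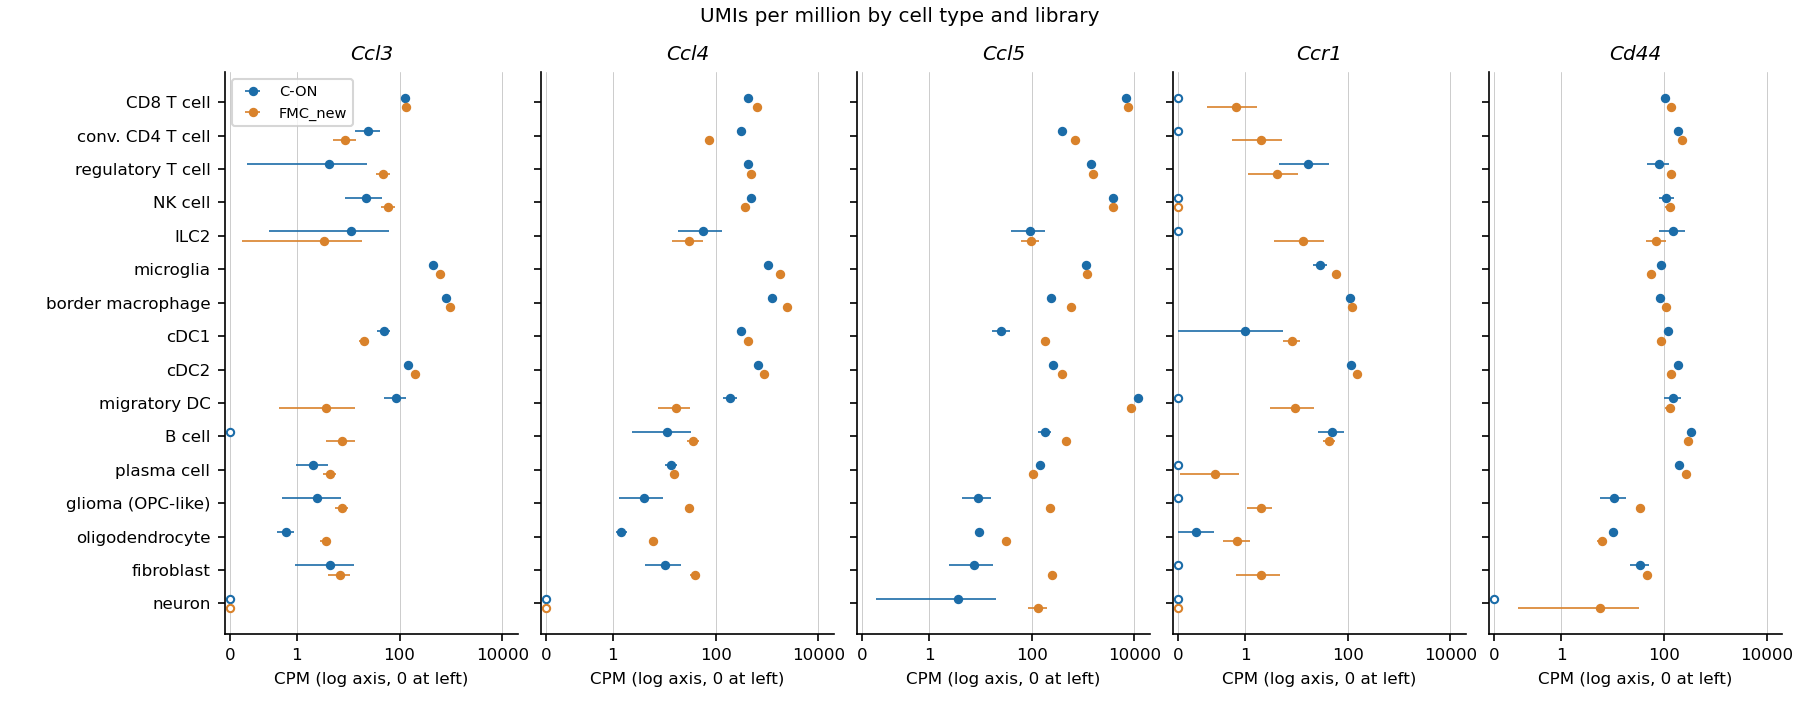
Level of each member (CPM on a log axis, with 0 drawn as an open circle at the left edge) in 16 cell types, with C-ON in blue, FMC_new in orange and bars for exact 95% Poisson intervals. *Ccl3* and *Ccl4* peak in border-associated macrophages and microglia, *Ccl5* in migratory dendritic cells and CD8 T cells at 6738 CPM or more, and *Ccr1* reaches 100 CPM in border-associated macrophages and cDC2 alone among these types.

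The 3 chemokines were found in very different shares of the CD8 T cells. *Ccl5* was detected in 86.6% of CD8 T cells in C-ON and 86.5% in FMC_new, and in 4.22% and 19.6% of oligodendrocytes, a type not known to make it, at median depths of 3659 and 3510 UMIs against 8072.5 and 7834. Thinned to 1000 UMIs per cell, these shares were 76.4% and 76.0% against 0.545% and 4.21%. *Ccl4* was detected in 38.2% and 41.5% of CD8 T cells (22.5% and 23.2% thinned) and in 1.14% and 4.53% of oligodendrocytes (0.15% and 0.587% thinned). For *Ccl3* the shares were 13.8% and 13.3% of CD8 T cells (5.26% and 6.01% thinned), against 0.506% and 2.31% of oligodendrocytes (0.0564% and 0.538% thinned). Among microglia, 34.3% and 29.5% held *Ccl3*, 40.3% and 41.2% held *Ccl4*, and 30.6% and 52.3% held *Ccl5*.

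Glioma cells held the chemokines rarely, apart from *Ccl5* in FMC_new. *Ccl5* was found in 4.74% and 27.4% of glioma cells, at median depths of 5264 and 5433 UMIs (1.45% and 12.0% thinned, against 0.545% and 4.21% in oligodendrocytes). *Ccl4* was found in 2.37% and 7.18% and *Ccl3* in 0.948% and 3.71% of glioma cells. A list of 7 T and NK cell genes that glioma cells should lack had a UMI in 8.53% and 29.9% of them and in 3.24% and 17.5% of oligodendrocytes, so these genes were also seen more often in glioma cells and in FMC_new. In the thinned glioma cells of FMC_new that held *Ccl5*, 40.6% also held a gene of that list, against 10.3% of those without *Ccl5*. *Cd44* was found in 4.74% and 10.4% of glioma cells (0.483% and 3.10% thinned) and in 7.73% and 3.91% of oligodendrocytes (1.18% and 0.441% thinned), so the order of these types differed between the libraries.

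*Ccr1* was found in 44.3% and 48.4% of cDC2, 30.7% and 29.8% of border-associated macrophages, 12.5% and 15.3% of microglia and 12.5% and 13.5% of B cells. In CD8 T cells the share was 0% in C-ON, where 0 of 477 cells allow up to 0.629% of cells with a UMI, and 0.266% in FMC_new. Oligodendrocytes gave 0.075% and 0.53%, so the CD8 T cell values were no higher than these. The depths differed, with medians of 3659 and 3510 UMIs in CD8 T cells against 8072.5 and 7834 in oligodendrocytes. In C-ON the limit of 0.629% also lies above the 0.075%, so a level at background is not shown there. Thinned shares of *Ccr1* were 10.3% and 14.0% in cDC2 and 2.07% and 4.90% in microglia.

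The cells that held the transcripts also differed among the members. Microglia and border-associated macrophages together held 75.2% of all *Ccl3* UMIs of C-ON and 75.1% of those of FMC_new, and 56.8% and 64.3% of the *Ccl4* UMIs. CD8 T cells held 9.06% and 5.50% of *Ccl3* and 12.4% and 8.06% of *Ccl4*. For *Ccl5* the division was the other way round, with 71.4% and 60.7% in T and NK cells, 56.9% and 47.7% in CD8 T cells alone, and 9.03% and 16.0% in microglia and border-associated macrophages. *Ccr1* came from microglia and border-associated macrophages (56.0% and 46.3%) and dendritic cells (38.4% and 40.0%), with 0.899% and 0.591% from T and NK cells. B and plasma cells held 32.7% and 36.6% of the *Cd44* UMIs, and T and NK cells 18.8% and 20.1%. Glioma cells held under 3% of the UMIs of any member, with 0.453% and 2.51% for *Cd44* and 0.0451% and 1.77% for *Ccl5*. These shares depend on the makeup of each suspension.

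**Figure D2:**
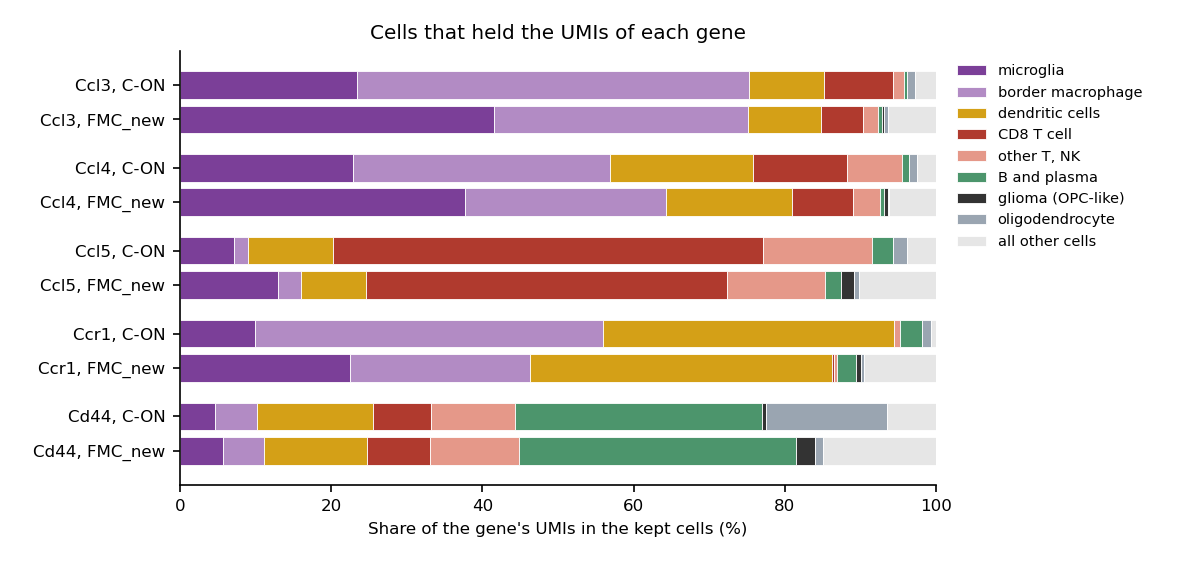
Share of each member's UMIs (percent of the UMIs in all kept cells) that lay in each group of cell types, with a bar for each library. The purple segments, microglia and border-associated macrophages, take 75.2% and 75.1% of *Ccl3*, and the red segments, CD8 and other T and NK cells, take 71.4% and 60.7% of *Ccl5*.

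Differences between cell types were tested on UMIs summed per library and type, with edgeR's quasi-likelihood test and the library as a block, and p-values adjusted over all genes. Of 40 member-by-contrast pairs, 9 passed an adjusted p of 0.05. These p-values rest on the spread of the summed counts left after the library block, estimated over all types in a fit. With 2 libraries of pooled mice, they do not measure the spread between mice. All log2 differences are for the first type minus the second, with their SE.

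CD8 T cells were compared with microglia, the T cell to microglia step of the proposed circuit. *Ccl5* was higher in CD8 T cells by 2.50 on the log2 scale (SE 0.879, adjusted p = 0.0257, edgeR), *Ccl3* was lower by the fitted value of -2.07 (SE 0.623, adjusted p = 0.0106) and *Ccr1* was lower at -6.59 (SE 0.648, adjusted p = 5.51e-08), the last resting on 0 and 4 UMIs in CD8 T cells against 44 and 570 in microglia. The libraries did not overlap for any of these genes, as the levels above show. *Ccl4*, at 419.8 and 634 CPM in CD8 T cells against 1055 and 1774 CPM in microglia, did not pass (-1.49, SE 0.721, adjusted p = 0.102), nor did *Cd44* (0.72, SE 0.385, adjusted p = 0.141), and they were called under 2 and 3 of 12 other settings. These 3 calls among 5 members stand beside a background of 41.7% of 14861 genes called in this contrast, 20.2% higher and 21.6% lower. Under these 12 settings of clustering, cell filter and test, the *Ccr1* call was kept in all 12, the *Ccl3* call in 9 and the *Ccl5* call in 7, with adjusted p up to 6.5e-05, 0.0796 and 0.151. Genes of the other lineage were present on both sides, with a UMI of the 7 T and NK cell genes in 9.27% and 27.9% of microglia and of 7 myeloid genes in 27.5% and 44.3% of CD8 T cells, and all 3 calls were kept when such cells were left out.

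Within the T cells, *Ccl5* and *Ccl3* were higher in CD8 than in conventional CD4 T cells. For *Ccl5*, 6738 and 7359 CPM stood against 396 and 707, a difference of 3.89 (SE 0.938, adjusted p = 0.0248, edgeR). For *Ccl3*, 126 and 134 CPM stood against 24.5 and 8.87, a difference of 3.35 (SE 0.811, adjusted p = 0.0269). In this contrast 2.3% of all genes were called, 1.02% higher and 1.29% lower in CD8 T cells. *Ccl4* (1.45, SE 0.751, adjusted p = 0.572) and *Cd44* (-0.68, SE 0.383, adjusted p = 0.628) did not pass. The *Ccl3* call was lost under 6 of 12 other settings and the *Ccl5* call under 3 (adjusted p up to 0.310 and 0.353). The *Ccl3* difference was 2.31 in C-ON alone, where 2 CD4 T cells held it, and 3.87 in FMC_new alone.

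Between CD8 T cells and NK cells, both cytotoxic lymphocytes, 0 members passed in edgeR against 3.93% of all genes (2.05% higher and 1.88% lower), 1 had an unadjusted p under 0.05, and 0 passed in DESeq2. The share of all genes under that unadjusted threshold was not counted. *Ccl3* differed by 1.79 (SE 0.739, adjusted p = 0.232), *Ccl5* by 1.04 (SE 0.841, adjusted p = 0.662), *Ccl4* by 0.45 (SE 0.727, adjusted p = 0.869) and *Cd44* by 0.18 (SE 0.407, adjusted p = 0.913). The *Ccl4* and *Cd44* levels overlapped, and those of *Ccl3* and *Ccl5* did not. Both *Ccl3* and *Ccl5* were called when every gene with at least 1 UMI was tested (adjusted p = 1.84e-06 and 0.000414, edgeR). For *Ccr1* no fold is given here, between CD8 and CD4 T cells, or within the CD8 T cells, since each group held under 10 UMIs.

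Microglia and border-associated macrophages were called different for *Ccr1* alone, lower in microglia (28.9 and 58.0 against 110.5 and 123 CPM), with a log2 difference of -1.55 (SE 0.341, adjusted p = 0.00618, edgeR). In this contrast 6.59% of genes were called, 3.05% higher and 3.55% lower. *Ccl3* (-0.88, SE 0.597, adjusted p = 0.477), *Ccl4* (-0.51, SE 0.707, adjusted p = 0.783), *Ccl5* (1.63, SE 0.858, adjusted p = 0.332) and *Cd44* (-0.57, SE 0.387, adjusted p = 0.478) were not, although *Ccl5* was higher and *Ccl3* and *Ccl4* lower in microglia in both libraries. The *Ccr1* call was lost under 5 of 12 other settings, with adjusted p up to 0.380.

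Glioma cells were compared with oligodendrocytes as the other oligodendroglial cells of the nerve. *Cd44* was higher in glioma cells by 1.25 (SE 0.407, adjusted p = 0.0125, edgeR), and *Ccl4* by 2.13 (SE 0.799, adjusted p = 0.0291), in a contrast in which 52.8% of all genes were called, 32.7% higher and 20.1% lower. The *Cd44* value rested on FMC_new: it was 2.50 in FMC_new alone and 0.14 in C-ON alone. The *Cd44* call was kept under 8 of 12 other settings, and its value was 0.50 to 1.40 over all 12. The *Ccl4* call was kept under 3 of 12, and its sign turned under clustering at a resolution of 1.6 (-0.69) and under SCTransform (-0.78). In FMC_new glioma clusters 8 and 23 held 164 and 52 *Ccl4* UMIs, and 70 of all these lay in 1 cell. *Ccl5* (2.04, SE 0.878, adjusted p = 0.0551) did not pass and was 2.85 in FMC_new alone and -0.015 in C-ON alone. Neither *Ccl3* (1.33, SE 0.808, adjusted p = 0.176) nor *Ccr1* (1.75, SE 0.785, adjusted p = 0.0672, from 0 and 14 UMIs against 5 and 12) passed. The T and NK cell genes given above moved with these values. With cells that carried genes of another lineage left out (for these types the T and NK cell list alone), *Ccl4* (1.80, adjusted p = 0.092) and *Cd44* (0.97, adjusted p = 0.0565, edgeR) were no longer called. *Ccl5* then stood at 0.46.

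**Figure D3:**
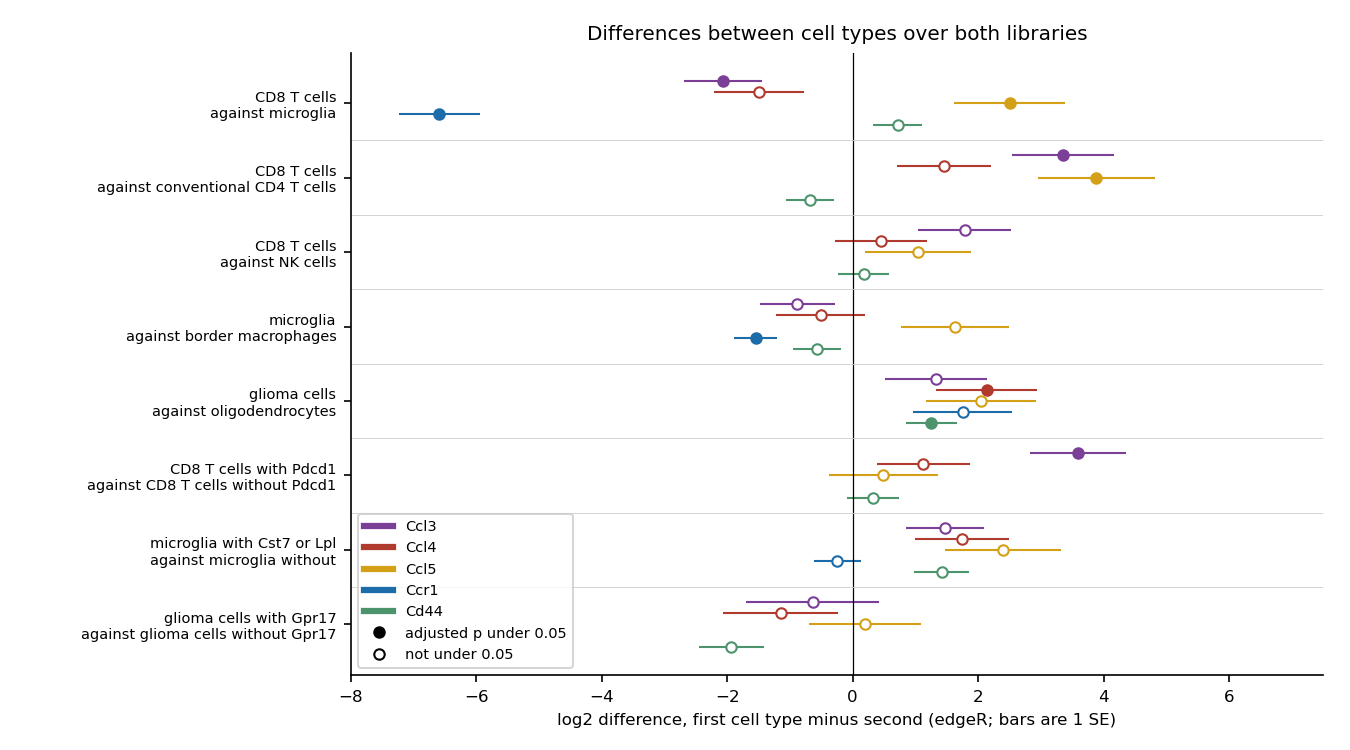
Log2 difference of each member in 8 contrasts between cell types, first type minus second, with bars of 1 SE from edgeR. Filled points passed an adjusted p of 0.05 (9 of 40), and 4 pairs with under 10 UMIs in both groups, all of *Ccr1*, are left out.

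Within the T cells, microglia and glioma cells, subtypes were set by UMIs of genes that are not members. CD8 T cells with a UMI of *Pdcd1*, an inhibitory receptor of antigen-experienced T cells, numbered 258 in C-ON and 907 in FMC_new, and those without it 219 and 596. *Ccl3* stood at 198 and 200.3 CPM in the cells with *Pdcd1* and at 22.5 and 12.9 CPM in those without, with no overlap. The difference was 3.59 (SE 0.766, adjusted p = 0.0093, edgeR), and *Ccl3* was the only member called, in a contrast in which 1.91% of genes were called, 1.61% higher and 0.306% lower. Its call was kept under 7 of 12 other settings, with a value of 3.07 to 3.59 in all of them and an adjusted p of up to 0.113. *Ccl3* was found in 22.9% and 19.4% of the cells with *Pdcd1* and in 3.20% and 4.03% of those without, or 9.34% and 9.07% against 0.459% and 1.35% after thinning. Median depths were 4061.5 and 3657 UMIs with *Pdcd1* and 3159 and 3363 without, so the cells with *Pdcd1* were the deeper ones in both libraries.

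*Ccl4* had 496 and 836 CPM in CD8 T cells with *Pdcd1* and 311 and 268 CPM in those without, higher in both libraries and not called (1.13, SE 0.746, adjusted p = 0.736). *Ccl5* had 7903 and 7691 against 5066 and 6759 CPM (0.49, SE 0.871, adjusted p = 0.971), and *Cd44* 112 and 153 against 98.1 and 111 CPM (0.32, SE 0.408, adjusted p = 0.917). Whether the *Ccl3* difference was larger than the *Ccl4* difference was not tested. The clusters hold the same cells, and *Pdcd1* was not kept out of the genes that formed them, so they are no independent view. T cell clusters 5 and 22 had 31.3 and 23.7, and 0 and 13.1 CPM of *Ccl3*. Cluster 11, whose leading genes include *Pdcd1* and *Cd8a*, had 249 and 266 CPM. Cluster 1, whose leading genes include *Gzmk*, *Cd8b1* and *Cd40lg*, had 6.32 and 7.09 CPM, while *Ccl5* stood at 8539 and 7413 against 3459 and 5345 CPM.

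Microglia with a UMI of *Cst7* or *Lpl*, genes of activated and disease-associated microglia, numbered 83 and 652, and those without 165 and 1308. Every chemokine was higher with these genes in both libraries. The T and NK cell list was higher with them too, at 318 and 381 against 63.7 and 275 CPM, with a UMI in 16.9% and 27.8% against 5.45% and 27.9% of the cells. With cells that carried genes of another lineage left out, the log2 differences were 1.57 for *Ccl3*, 1.78 for *Ccl4* and 2.63 for *Ccl5*, beside the values over all cells that follow. *Ccl3* had 679 and 815 against 215 and 418 CPM (1.47, SE 0.621, adjusted p = 0.290), *Ccl4* 1807 and 2429 against 349 and 1198 CPM (1.74, SE 0.75, adjusted p = 0.306), and *Ccl5* 2020.1 and 1829 against 341 and 639 CPM (2.39, SE 0.921, adjusted p = 0.246, edgeR). *Cd44* also stood higher, at 138 and 68.3 against 40.7 and 45.1 CPM (1.42, SE 0.438, adjusted p = 0.152), while *Ccr1* had 14.9 and 55.0 against 42.0 and 60.6 CPM (-0.25, SE 0.374, adjusted p = 0.853). In edgeR 0 of the 5 members passed against 0.64% of all genes (0.48% higher and 0.16% lower), 4 had an unadjusted p under 0.05, and in DESeq2 0 passed. The share of all genes under that unadjusted threshold was not counted, so these 4 have no background to stand beside. These 4 (*Ccl3*, *Ccl4*, *Ccl5* and *Cd44*) were each called under 1 of 12 other settings, that with every gene with at least 1 UMI tested. Median depths were 8590 and 6508 UMIs with the gate genes against 3868 and 2759 without. After thinning to 1000 UMIs, *Ccl3* was found in 27.7% and 25.7% against 8.86% and 13.8% of the cells, and *Ccl5* in 37.3% and 44.4% against 8.23% and 28.2%. In FMC_new 24.1% of the thinned microglia with *Ccl5* held a gene of the T and NK cell list, against 13% of those without. Microglia cluster 15, which has no microglia marker among its 10 leading genes, had 264 and 1583 CPM of *Ccl5* and 162 and 89.7 CPM of *Ccl3*.

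Glioma cells with a UMI of *Gpr17*, a receptor of cells committed to the oligodendrocyte lineage, numbered 102 and 549, and those without 109 and 718. *Cd44* had 9.67 and 12.0 CPM with *Gpr17* and 11.6 and 58.3 CPM without, the lower value on the *Gpr17* side in both libraries but with overlapping ranges (-1.93, SE 0.518, adjusted p = 0.324, edgeR). By cluster the order was the other way, with 11.6 and 73.1 CPM of *Cd44* in glioma cluster 23, whose leading genes include *Gpr17*, against 10.4 and 26.1 CPM in cluster 8, and the C-ON value of cluster 23 came from 2 UMIs. *Ccl4* had 6.45 and 16.9 against 1.65 and 45.1 CPM and *Ccl5* 8.06 and 259 against 9.91 and 202 CPM, so the direction differed between the libraries for both, as it did for *Ccl3* (4.84 and 5.15 against 0 and 9.76 CPM). In FMC_new 1 cell without *Gpr17* held 70 *Ccl4* UMIs, and 1 cell with it held 128 *Ccl5* UMIs. *Ccr1* held 0 UMIs on both sides in C-ON. No member passed in edgeR (0 of 5, against 0.0834% of all genes, 0.0209% higher and 0.0626% lower), 1 had an unadjusted p under 0.05, and 0 passed in DESeq2. The share of all genes under that unadjusted threshold was not counted.

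**Figure D4:**
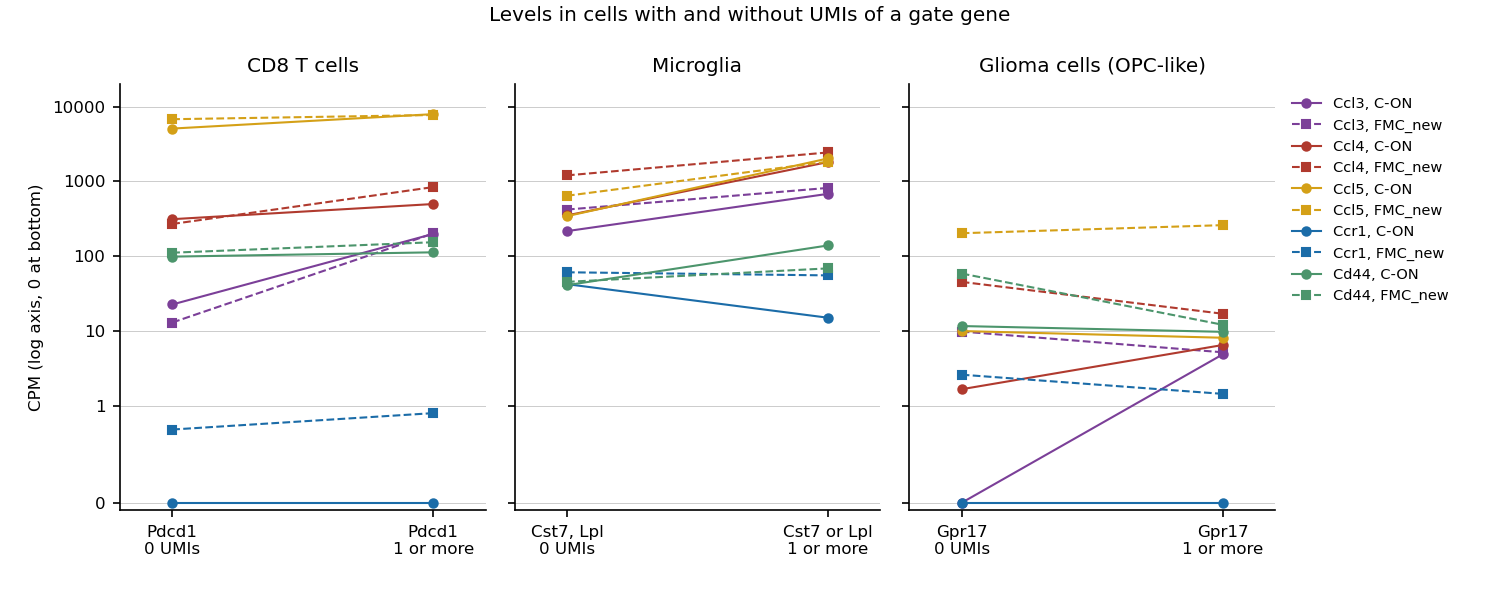
Levels (CPM on a log axis, with 0 drawn at the bottom) in cells without and with UMIs of a gate gene, with circles and solid lines for C-ON and squares and dashed lines for FMC_new. *Ccl3* goes from 22.5 and 12.9 to 198 and 200.3 CPM between CD8 T cells without and with *Pdcd1*, and the chemokine lines all rise in microglia with *Cst7* or *Lpl*.

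*Ccl4* was found more often in cells that held *Ccl3* than in cells that did not. With cells thinned to 1000 UMIs, *Ccl4* was found in 21 of the 25 CD8 T cells of C-ON that held *Ccl3* (84.0%) and in 65 of 90 in FMC_new (72.2%), against 19.1% and 20.1% of the CD8 T cells without *Ccl3*. In microglia the shares were 78.4% and 73.2% against 15.7% and 17.7%, and in border-associated macrophages 57.9% and 66.1% against 20.7% and 22.0%. In cDC2 they were 41.2% (7 of 17 cells) and 65.9% against 16.1% and 21.5%. These shares carry no test, because the cells within a library are not independent samples.

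**Figure D5:**
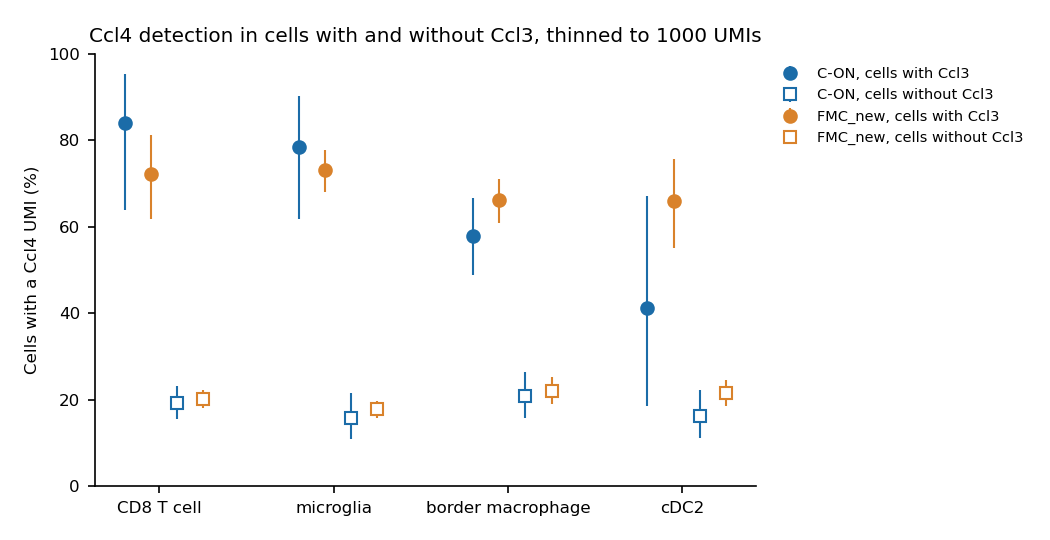
Percent of cells with a *Ccl4* UMI among cells with *Ccl3* (filled circles) and without it (open squares), by library and cell type, after thinning to 1000 UMIs per cell, with exact binomial 95% intervals. In CD8 T cells the values are 84.0% and 72.2% with *Ccl3* against 19.1% and 20.1% without.

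The transcripts were also unevenly spread among the cells of a type. In CD8 T cells the 10% of cells with the most *Ccl3* held 93.1% and 93.8% of its UMIs, against 69.7% and 75.2% for *Ccl4* and 41.8% and 43.5% for *Ccl5*. CD8 T cells that held *Ccl5* had a median of 19 and 18 UMIs of it. In microglia the corresponding 10% held 73.4% and 82.9% of the *Ccl3* UMIs and 86.6% and 76.2% of the *Ccl5* UMIs.

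Immediate early and dissociation genes (13 genes, such as *Fos*, *Jun* and *Atf3*), which rise when tissue is dissociated, were high in the same myeloid cells and in type 2 innate lymphoid cells (ILC2). Their summed level was 20845 and 22028 CPM in microglia, 21960 and 24875 CPM in border-associated macrophages, 15758 and 16002 CPM in cDC2 and 3497 and 3993 CPM in CD8 T cells. ILC2 (28 and 69 cells) had 16993 and 18565 CPM of them, with 11.4 and 3.40 CPM of *Ccl3* and 56.9 and 30.6 CPM of *Ccl4*. In thinned microglia of FMC_new, the cells with *Ccl4* had 24.1 UMIs of these genes per cell and the cells without it 16.8, whereas in C-ON the values were 21.7 and 21.5. For *Ccl5* in microglia the values ran the other way, 15.6 against 20.4 in FMC_new and 15.7 against 22.8 in C-ON. The part of these genes in the chemokine levels was not tested.

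Of 24 other genes of the pathway (receptors and binders of these ligands, other CC ligands of their receptors, and ligands and partners of Cd44), 19 passed the filter on low counts in the contrasts between types and 18 in those within types. Between CD8 T cells and microglia, 12 of the 19 genes were lower in CD8 T cells and 0 higher (edgeR), beside 21.6% and 20.2% of all genes, with a median of -3.94 beside -0.047 over all genes. Among them was the CC ligand *Ccl12*, which had 2.91 and 6.79 CPM in CD8 T cells and 791 and 1269 CPM in microglia.

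Between microglia and border-associated macrophages 6 of the 19 were lower in microglia (*Ccl2*, *Ccl6*, *Ccl7*, *Ccl8*, *Ccl9* and *Sdc4*) and 1 was higher (*Vcan*), beside 3.55% and 3.05% of all genes, with a median of -0.62 beside 0.071. *Ccl2*, which the circuit assigns to glioma cells, had 2011 and 1431 CPM in border-associated macrophages, 383 and 465 CPM in microglia and 22.0 and 11.3 CPM in glioma cells. Its log2 difference between microglia and border-associated macrophages was -2.09 (SE 0.348, adjusted p = 0.000367, edgeR). *Ccrl2*, a receptor that binds chemoattractants without signalling, was higher in CD8 T cells than in conventional CD4 T cells (1.51, SE 0.381, adjusted p = 0.035) and than in NK cells (1.47, SE 0.415, adjusted p = 0.049), and it was the only gene of the 19 called in either contrast. Over all genes, 1.02% were higher and 1.29% lower in CD8 than in CD4 T cells, and 2.05% and 1.88% in CD8 T than in NK cells.

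In glioma cells 16 of the 19 were higher than in oligodendrocytes and 0 lower, beside 32.7% and 20.1% of all genes, with a median of 2.44 beside 0.17. They included the Cd44 partners *Vcan*, a hyaluronan-binding proteoglycan, at 971 and 763 against 1.63 and 1.88 CPM (8.58, SE 0.39, adjusted p = 7.48e-14, edgeR), and *Has2*, a hyaluronan synthase, at 10.6 and 8.02 CPM. They also included myeloid genes such as *Cd74*, at 916 and 1139 against 45.5 and 173 CPM. A list of 7 myeloid genes (*C1qa* and others) summed to 139 and 389 CPM in glioma cells and 60.7 and 157 CPM in oligodendrocytes, so it too was higher in glioma cells in both libraries. Its genes had a UMI in 31.8% and 53.4% of glioma cells and 34.6% and 50.8% of the deeper oligodendrocytes. With glioma cells and oligodendrocytes that carried a T or NK cell gene left out, 17 of the 19 were higher in glioma cells and 0 lower. This stood beside 27.4% and 25.1% of all genes, with a median of 2.16. Glioma cells and oligodendrocytes with myeloid genes stayed in that setting, so the part of myeloid RNA was not tested.

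Between CD8 T cells with and without *Pdcd1*, *Ccrl2* (2.86, SE 0.413, adjusted p = 0.000213, edgeR) and *Spp1*, the Cd44 ligand osteopontin (3.28, SE 0.748, adjusted p = 0.0173), were higher with *Pdcd1*, as *Ccl3* was, and 0 of 18 were lower, beside 1.61% and 0.306% of all genes (median 0.16 beside 0.026). Between microglia with and without *Cst7* or *Lpl*, *Spp1* alone of 18 was called (3.55, SE 0.656, adjusted p = 0.00777, edgeR), beside 0.48% of all genes higher and 0.16% lower, at 89.6 and 263 against 7.64 and 23.9 CPM (median 0.66 beside -0.017). Between glioma cells with and without *Gpr17*, 0 of 18 were called in either direction, beside 0.0834% of all genes, so a count of 0 is no result about the list.

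The genes whose levels over the 16 types were most like those of each member were taken as those with the highest Pearson correlation of log2(CPM + 1), by the lower of the values of the 2 libraries, among 14279 genes. For *Ccl3* these were *Ccl4* (0.868), *Pdgfb* (0.836), *Ms4a6c* (0.816), *Siglech* (0.81) and *Csf1r* (0.804), and for *Ccl4* they were *Pdgfb* (0.889), *Cd84*, *Naip2* and *Ifi213* (0.876 each) and *Otulinl* (0.868). *Ccl5* was most like *Epsti1* (0.84) and *Dusp2* (0.823), *Ccr1* like *Trim30c* (0.836) and *Nlrc4* (0.82), and *Cd44* like *Itga4* (0.908) and *Ptk2b* (0.905), both genes of leukocytes. Among the members themselves the lower correlation was 0.405 for *Ccl3* with *Ccr1* and 0.0707 for *Ccl5* with *Ccr1*. The 16 types share their libraries, depth and free RNA, so these values are descriptions.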

How the data were processed

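Optic nerve suspensions (neural dissociation kit, debris and myelin removal) were sequenced as 10x Genomics 5′ v2 libraries. The authors deposited UMI counts per gene and barcode, whole numbers without normalization, made with Cell Ranger 7.2.0 on mm10 per the labels. The study's text gives another Cell Ranger version, and intron counting is not stated. The labels also describe sorted meningeal dura and T cell receptor libraries, not analysed here.

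Cells with 500 to 5000 genes, 500 to 20000 UMIs and at most 5% mitochondrial UMIs were kept. Seurat 5.3.0 (R 4.3.3) was used for log normalization, 2000 variable features without the members and pathway genes, CCA integration, 30 components and clustering at a resolution of 0.8. Of 39 clusters, 30 were named from 26 marker lists, where at least 3 markers were found in 20% of cells at 2-fold the mean over clusters. A cluster that best matched the general macrophage list was named microglia or border-associated macrophages if it met at least 3 markers of either. Clusters 4 (border-associated macrophages) and 20 (microglia) were named in this way. Exceptions to the naming rule (cell cycle genes, other lineages or no own marker leading a cluster) were written after the leading genes had been seen. T and NK cells were then split by UMIs of *Cd3*, *Cd8*, *Cd4*, *Foxp3* and *Trdc* genes. Scrublet (scanpy 1.11.5, Python 3.11.15) marked 1 and 0 cells, under 0.5%, so it did not work as a doublet caller. Leaving out the top 8% of scores was added as an alternative after seeing the data, as were 2 others.

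UMIs were summed per library and type and tested with edgeR 4.0.16 (quasi-likelihood, TMM, filter on low counts, library as a block, Benjamini-Hochberg over all genes). Both types of a contrast come from the same pooled mice of a library, so the library pairs them. Of 10 contrasts planned, 8 were run: the 2 with classical monocytes had no cluster of that name. On data simulated for CD8 T cells against microglia (15259 genes), 0 of 67 genes with a 2-fold change, 59.7% with a 4-fold and 97.0% with a 16-fold change were called, and 0 of 15059 unchanged genes. The genes named are the members, the 24 pathway genes and, for likeness, up to 5 genes per member among those with at least 10 CPM in a type. Members and lists were chosen with earlier results of these data known. The 2 samples may differ in ways their labels do not give. Some pathway and marker genes, though counted in their lists, are not reported here.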

Additional observations from a re-analysis of the deposited data

How the results depend on the processing

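Of the 9 calls on members, 9 were kept with cells of at least 1000 UMIs, at a resolution of 0.4 and with every gene with at least 1 UMI tested. Leaving out the cells marked by Scrublet removed 1 cell in all and was not counted among the 12 other settings. Of the 31 pairs not called, 15 were called with every gene with at least 1 UMI tested. That setting tested 25260 genes per contrast. It called 2858 higher and 3732 lower for CD8 T cells against microglia, 5472 and 3224 for glioma cells against oligodendrocytes, and 272 and 81 for the *Pdcd1* gate. Its counts for the other contrasts are given below. At a resolution of 0.4, *Ccl3* (3.21) and *Ccr1* (3.23) between glioma cells and oligodendrocytes were called too, and between CD8 T cells and microglia *Ccl4* (-1.77) was called with the highest Scrublet scores left out and *Cd44* (1.0) with other-lineage cells left out. The values that changed are given below as log2 differences, first type minus second, and the cause was not tested unless stated.

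The library was a block in the fit. With no replicate block, 2 calls on members were kept and 7 lost, with nearly the same values. The lost ones were *Ccl3* (-2.09) and *Ccl5* (2.51) between CD8 T cells and microglia, *Ccl3* (3.20) and *Ccl5* (3.76) between CD8 and CD4 T cells, *Ccr1* (-1.46) between microglia and border-associated macrophages, *Ccl4* (2.01) between glioma cells and oligodendrocytes, and *Ccl3* (3.53) between CD8 T cells with and without *Pdcd1*. Without the block, genes called fell to 132 for CD8 against CD4 T cells, 348 for CD8 T against NK cells, 456 for microglia against border-associated macrophages, 114 for the *Pdcd1* gate, 4 for the *Cst7* or *Lpl* gate and 1 for the *Gpr17* gate.

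DESeq2 kept 3 of the 9 calls. It lost *Ccl3* (-2.21) and *Ccl5* (2.36) between CD8 T cells and microglia, *Ccl3* (2.91) between CD8 and CD4 T cells, *Ccr1* (-1.66) between microglia and border-associated macrophages, *Ccl4* (2.09) between glioma cells and oligodendrocytes and *Ccl3* (3.39) for the *Pdcd1* gate.

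At a resolution of 1.6, *Ccl5* between CD8 T cells and microglia (2.37), *Ccl3* (3.33) and *Ccl5* (3.94) between CD8 and CD4 T cells, *Ccr1* between microglia and border-associated macrophages (-1.67), *Cd44* between glioma cells and oligodendrocytes (0.99) and *Ccl3* for the *Pdcd1* gate (3.56) were no longer called. In glioma cells against oligodendrocytes the sign turned for *Ccl3* (-1.16), *Ccl4* (-0.69) and *Ccr1* (-0.67). Genes called were 178 for CD8 against CD4 T cells, 155 for the *Pdcd1* gate and 7 for the *Cst7* or *Lpl* gate. At 0.4, 139 genes were called for the *Cst7* or *Lpl* gate. At 0.4 no migratory dendritic cell cluster was found.

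Under SCTransform 1 call on a member was kept. Those lost were *Ccl3* (-2.29) and *Ccl5* (2.35) between CD8 T cells and microglia, *Ccl3* (2.94) and *Ccl5* (3.81) between CD8 and CD4 T cells, *Ccr1* between microglia and border-associated macrophages (-1.39), *Cd44* between glioma cells and oligodendrocytes (0.50) and *Ccl3* for the *Pdcd1* gate (3.48). The sign turned for *Ccl3* (-0.74) and *Ccl4* (-0.78) in glioma cells against oligodendrocytes and *Ccl3* (0.23) for the *Gpr17* gate. Genes called were 136 for CD8 against CD4 T cells, 333 for CD8 T against NK cells, 482 for microglia against border-associated macrophages, 89 for the *Pdcd1* gate, 7 for the *Cst7* or *Lpl* gate and 2 for the *Gpr17* gate. *Cd44* in B cells stood at 377 CPM and 37.1% of *Ccr1* UMIs lay in cDC2.

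With the members left among the variable features, *Ccl5* between CD8 T cells and microglia (2.30), *Ccl3* between CD8 and CD4 T cells (3.31), *Ccr1* between microglia and border-associated macrophages (-1.51), *Ccl4* between glioma cells and oligodendrocytes (1.66) and *Ccl3* for the *Pdcd1* gate (3.53) lost their call. *Ccl5* for the *Gpr17* gate turned to -0.15, and 15 genes were called for the *Cst7* or *Lpl* gate.

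With cells that carried genes of another lineage left out, *Ccl3* between CD8 and CD4 T cells (3.0) and *Ccl4* (1.80) and *Cd44* (0.97) between glioma cells and oligodendrocytes lost their call, and *Ccl5* for the *Gpr17* gate turned to -0.59. The cells left out were lymphocytes with a myeloid gene, and myeloid cells, glioma cells and oligodendrocytes with a T or NK cell gene. Genes called were 165 for the *Pdcd1* gate and 168 for the *Cst7* or *Lpl* gate, and 36.6% of *Cd44* UMIs lay in plasma cells. This setting left 15 NK cells in C-ON, so that contrast was not run. With *Tyrobp* taken out of the myeloid list, an alternative added after seeing the data, the values were 1.98 for *Ccl4* between glioma cells and oligodendrocytes (lost), -0.58 for *Ccl5* at the *Gpr17* gate, 182 genes for the *Cst7* or *Lpl* gate and 36.0% of *Cd44* UMIs.

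With the highest Scrublet scores left out (added after seeing the data), *Ccl4* (0.93) and *Cd44* (0.82) between glioma cells and oligodendrocytes lost their call, *Ccl5* at the *Gpr17* gate turned to -0.86, 22 genes were called for that gate and 38.6% of *Ccr1* UMIs lay in cDC2. Without microglia cluster 15 (also added), *Ccl4* between glioma cells and oligodendrocytes (1.90) lost its call and 38.9% of *Ccr1* UMIs lay in cDC2. With every gene with at least 1 UMI tested, genes called rose to 599 for CD8 against CD4 T cells, 878 for CD8 T against NK cells, 1760 for microglia against border-associated macrophages, 554 for the *Cst7* or *Lpl* gate and 57 for the *Gpr17* gate.

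For *Ccr1*, pairs with under 10 UMIs in each group have no fold, and the sign of their fitted values carries no direction. At the *Pdcd1* gate (0 and 3 UMIs with *Pdcd1*, 0 and 1 without) it was 0.67, and -0.79 at a resolution of 0.4, -0.87 under SCTransform, -0.86 with the members among the variable features and -3.81 or -3.66 with other-lineage cells left out. It was 4.05 between CD8 T and NK cells, and -0.093 in DESeq2, and at the *Gpr17* gate -0.91, and 0.92 under SCTransform.

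With each library alone, *Cd44* between glioma cells and oligodendrocytes ranged from 0.14 to 2.50, *Ccl4* in the same contrast from 1.61 to 2.32 and *Ccl3* between CD8 and CD4 T cells from 2.31 to 3.87. The type that led each member's order did not change in any setting in which it was found. *Ccr1* held 14 UMIs or fewer per library in CD8 T, NK and glioma cells, so its values there rest on few counts. Glioma cells were not tested against CD8 T or NK cells.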
